A study of Mus musculus with 8 samples.

Results

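The suppressors of cytokine signalling form a family of 8 mouse genes: Cish, which encodes CIS, and Socs1 to Socs7. Each protein carries an SH2 domain that binds phosphorylated tyrosines and a carboxy-terminal SOCS box that docks on a ubiquitin ligase built on elongins and cullin 5. Cytokine receptors switch on JAK kinases, the kinases activate STAT transcription factors, and the STATs in turn raise several SOCS genes, whose products then damp the receptor that induced them. SOCS3 binds the IL-6 receptor chain gp130 and holds back STAT3, the STAT that IL-6 and IL-23 use to drive T helper 17 (Th17) cells.

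The genes were read from 8 mouse gene expression arrays, 1 array per sample, by taking every probe set that the platform table gave to a member symbol alone. This found 12 probe sets for the 8 genes, out of 35556 probe sets in all. Socs2 and Socs3 had 2 probe sets each, Socs6 had 3, and the other 5 genes had 1 each. The brightest probe set of a gene over the 8 arrays stood for it in the tests. All 8 standing probe sets reached the filter, the median of all deposited values (log2 signal 7.85), on all 8 arrays, so no member entered the test through the group in which it was high.

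All samples were naive CD4+ T cells cultured as Th17 cells, per the labels, through antibodies to CD3 and CD28 with IL-1, IL-6 and IL-23. The label text on treatment speaks of SRC-3-deficient and wild-type cells and is the same for the RORγt samples. The arrays made up 2 experiments, each with 2 deficient and 2 wild-type samples. In the first, cells deficient in SRC-3, a steroid receptor coactivator, came from mice labelled SRC-3 (f/f) and were set beside cells of SRC-3 WT mice. In the second, cells of RORgt (-/-) mice, which lack the nuclear receptor RORγt of the Th17 fate, were set beside cells of RORgt WT mice. The labels name no Cre driver for the f/f allele, no age and no sex. They call the 2 arrays of a group biological replicates but leave it unsaid whether these are different mice. The p-values therefore speak of the spread among these samples, which may not be the spread among mice.

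Some facts about the arrays touch every result. The gene of SRC-3, Ncoa3, gave log2 signals of 11.15 and 10.97 in SRC-3-deficient cells, below the 11.76 and 11.53 of the matching wild type. Its log2 fold change was −0.58, short of the threshold in a fit of all genes without the filter (limma adjusted p = 0.0619). The gene of RORγt was not analysed here. The 6 measured CD4 T cell markers lay between 11.58 and 13.56 on every array. Of the other cell types, the 5 myeloid, 4 dendritic cell and 3 NK cell markers measured reached the filter on no array, nor did 3 of the 4 measured B cell markers and Cd8a. Above it on all or most arrays were Cd79b (7.85 to 8.45), Cd8b1 (8.29 to 9.14) and Sox13 (8.34 to 8.53), whose part in the results was not tested. Cd8b1 was higher on both SRC-3-deficient arrays (8.91 and 8.76) than in their wild type (8.54 and 8.29). It was also higher on both RORγt-deficient arrays (9.141 and 9.133) than in theirs (8.925 and 8.998). The Th17 marker Il17a fell from 11.63 and 11.27 to 7.52 and 7.16 without RORγt. Xist, the transcript of the inactive X chromosome of females, read 6.37 and 6.08 in RORγt-deficient cells beside 12.56 and 12.76 in the matching wild type, so sex and RORγt genotype cannot be told apart. In the SRC-3 experiment, Xist was at 7.10 on deficient replicate 1 and between 13.52 and 13.65 on the other 3 arrays. Eif2s3y, also read as a sign of sex, was at 11.16 on deficient replicate 1 and 4.87 on deficient replicate 2. These 2 deficient samples thus came from mice of different sex. Each group has 2 arrays, and that number bounds how precise any value can be.

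In the RefSeq table of promoter windows (GRCm38.p6), 4 of the 8 genes had an entry, which holds 250 bases before and 50 bases after a start site. Those of Socs3, Cish and Socs1 are shown because these genes are known as STAT-induced feedback inhibitors, and the window of Socs4 held none of the motifs searched. Capitals mark TTCNNNGAA, the STAT element with 3 bases between TTC and GAA, a pattern that is its own reverse complement. The like element with 4 bases there and AGGTCA, the core element of nuclear receptors such as the RORs, were also searched on both strands and were found in none of the 4 windows. A match describes letters in this window and is not a measured binding site.
Socs3, chr11:117969317-117969616, minus strand: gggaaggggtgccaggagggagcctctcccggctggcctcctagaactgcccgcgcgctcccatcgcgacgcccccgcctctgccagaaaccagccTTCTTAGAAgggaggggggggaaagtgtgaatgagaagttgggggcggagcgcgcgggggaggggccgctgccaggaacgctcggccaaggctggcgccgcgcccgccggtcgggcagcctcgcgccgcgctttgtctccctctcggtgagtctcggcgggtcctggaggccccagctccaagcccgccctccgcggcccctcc
Cish, chr9:107296409-107296708, plus strand: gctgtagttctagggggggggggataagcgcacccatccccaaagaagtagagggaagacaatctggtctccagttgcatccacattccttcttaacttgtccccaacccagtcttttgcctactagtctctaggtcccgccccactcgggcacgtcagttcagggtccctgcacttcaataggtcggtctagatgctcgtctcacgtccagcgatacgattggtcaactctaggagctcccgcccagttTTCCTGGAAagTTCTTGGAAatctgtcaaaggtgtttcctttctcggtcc
Socs1, chr16:10785487-10785786, minus strand: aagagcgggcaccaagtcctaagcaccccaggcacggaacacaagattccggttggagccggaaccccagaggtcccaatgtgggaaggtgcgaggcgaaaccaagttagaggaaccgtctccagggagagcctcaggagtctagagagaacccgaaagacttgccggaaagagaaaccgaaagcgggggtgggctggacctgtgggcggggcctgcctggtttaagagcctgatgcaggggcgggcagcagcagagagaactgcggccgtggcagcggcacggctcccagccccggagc
The Socs3 window held 1 match, TTCTTAGAA, whose first base was base 97 of the window. The Cish window held 2, TTCCTGGAA at base 251 and TTCTTGGAA at base 262, that is, from the start site onward. The Socs1 window held 0. Of all 32851 windows in the table, 8.30% held at least 1 such element and 0.457% held 2 or more, while 6.95% held the element with 4 bases between TTC and GAA and 16.3% held AGGTCA.

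The RORγt comparison asks which of these feedback genes differ when the receptor of the Th17 fate is missing. Socs3 and Socs2 rose in the RORγt-deficient cells, and the other 6 members did not pass the test. Socs3 rose 1.59-fold and Socs2 rose 1.35-fold. The share of members called, 2 of 8, is close to the share of all 11128 genes called in this comparison, 19.4%, so the count is no result about the family as a whole.

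Socs3, the feedback inhibitor of the IL-6 and IL-23 pathways, read 11.25 and 11.48 (log2 signal) in the cells without RORγt. In the matching wild-type cells it read 10.71 and 10.68, so both deficient samples lay above both wild-type samples. The log2 fold change was 0.67 (SE 0.15, 95% confidence interval 0.31 to 1.02, n = 2 per group), and the adjusted p from limma over all genes was 0.0228. By p, Socs3 ranked 1317 among the 11128 genes.

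Socs3 has a second, dimmer probe set, assigned through another sequence accession. It read 8.87 and 9.21 without RORγt, above the wild-type readings of 8.50 and 8.27. Its groups did not overlap either, and its log2 fold change was 0.66 (SE 0.14, limma adjusted p = 0.0205 with each probe set tested on its own). Both readings of the gene thus gave a rise of like size. The call rests on all 4 arrays: leaving out any of them left a log2 fold change between 0.55 and 0.78 and a limma adjusted p between 0.0657 and 0.124, where the lone array of a group was assumed to vary like the others.

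Socs2, known above all as the brake on growth hormone signalling and also induced through STAT5, read 12.93 and 12.85 in the same deficient cells. The wild type read 12.46 and 12.47. The wild-type pair was nearly identical, and the groups did not overlap. The log2 fold change was 0.43 (SE 0.11, 95% confidence interval 0.18 to 0.68), with a limma adjusted p of 0.0295. The dimmer Socs2 probe set read 10.56 and 10.51 beside 10.22 in both wild-type samples, and missed the threshold (0.31, SE 0.11, limma adjusted p = 0.0804). Both Socs2 probe sets are assigned in part through the same transcripts, so how far they are separate readings is uncertain. Leaving out any of the 4 RORγt arrays left a log2 fold change between 0.39 and 0.47 for the brighter probe set and took its limma adjusted p to between 0.0903 and 0.166.

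**Figure D1:**
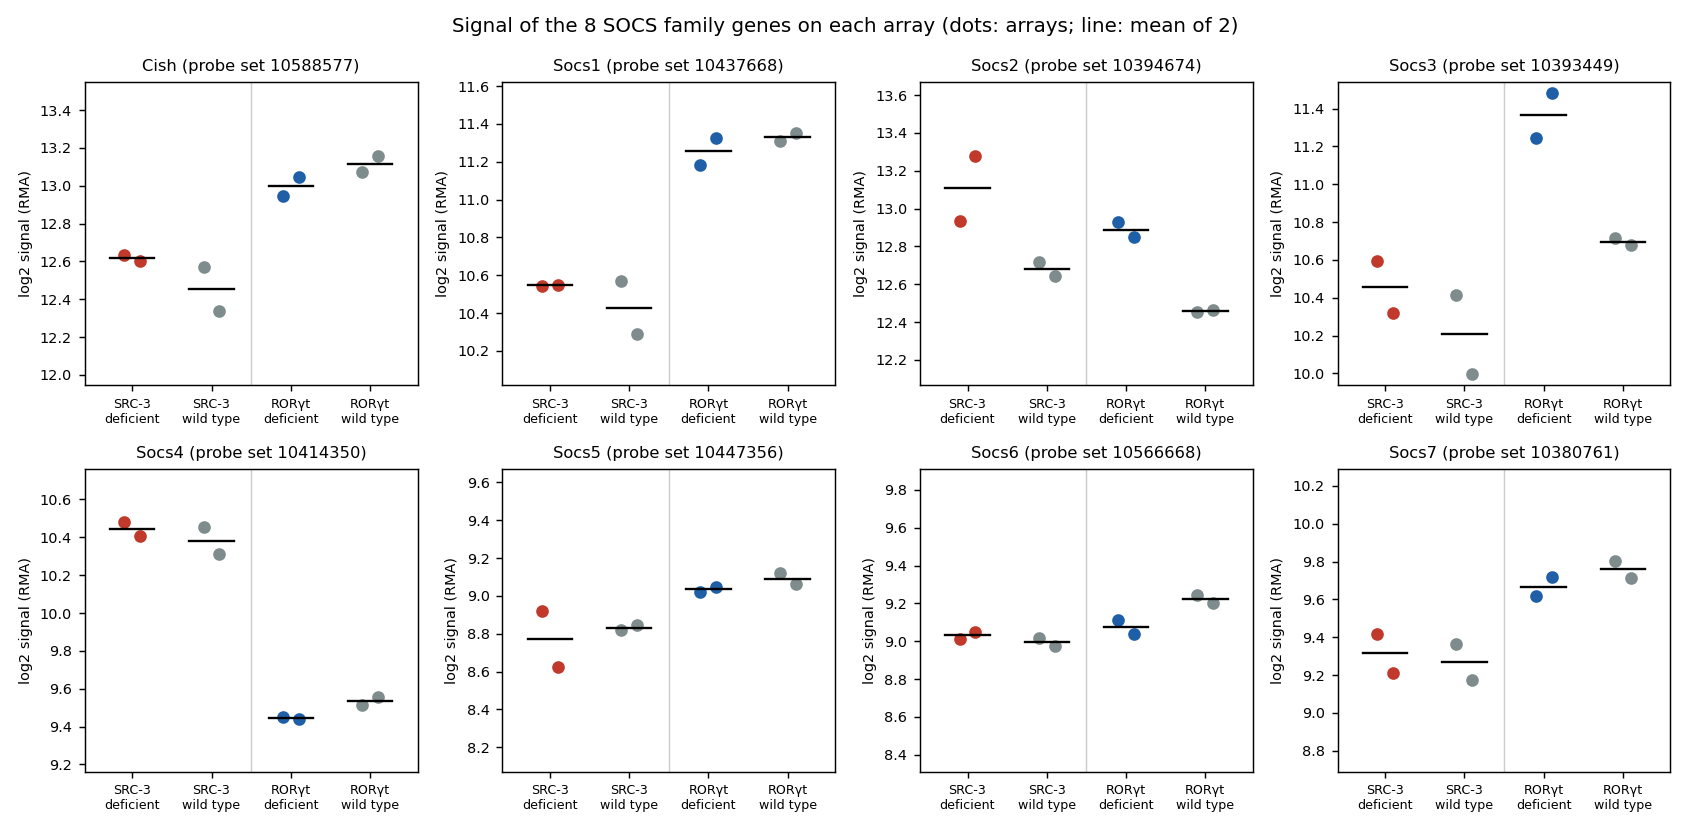
Log2 signal (RMA, vertical axis) of the standing probe set of each SOCS family gene on the 8 arrays, by group; dots are arrays, lines are means of 2, and every panel spans 1.6 log2 units. Socs2 and Socs3 sit higher in both RORγt-deficient samples than in their wild-type samples, and Socs4 is lower on all 4 arrays of the RORγt experiment than on the SRC-3 arrays.

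The classical feedback inhibitors Cish and Socs1 did not pass in the RORγt comparison. Cish, a STAT5 target that limits signalling from the IL-2 and T cell receptors, read 12.95 and 13.05 without RORγt beside 13.07 and 13.16 in the wild type. Its groups did not overlap, but the gap was small (log2 fold change −0.12, 95% confidence interval −0.32 to 0.08, limma adjusted p = 0.386). Socs1, the main inhibitor of interferon γ signalling, read 11.18 and 11.33 beside 11.31 and 11.35, and these groups overlapped. Its log2 fold change was −0.07 (95% confidence interval −0.30 to 0.15, limma adjusted p = 0.634). These intervals exclude a rise of the size measured for Socs3, 0.67, in either gene.

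The less studied members, Socs4 to Socs7, act mostly on growth factor and insulin signalling, and each gave a log2 fold change below 0 in the RORγt-deficient cells. Socs6, which binds the receptor tyrosine kinase KIT, came closest to a call. It read 9.11 and 9.04 without RORγt beside 9.24 and 9.20 in the wild type, with no overlap (log2 fold change −0.15, SE 0.06, limma adjusted p = 0.113). With array weights in the fit, Socs6 passed (limma adjusted p = 0.0487). The second probe set, 10460118, gave −0.13 (limma adjusted p = 0.226). It carries the same accessions as the standing one, so how far the 2 read separate sequence is uncertain. Its probe set 10460116 stayed between 4.36 and 4.50 on all 8 arrays, below the filter.

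Socs4, which like Socs5 is linked to turnover of the EGF receptor, read 9.45 and 9.44 beside 9.51 and 9.55 (log2 fold change −0.09, limma adjusted p = 0.397). Socs5, also described as an inhibitor of IL-4 signalling, read 9.02 and 9.05 beside 9.12 and 9.06 (−0.06, limma adjusted p = 0.72). Socs7, which binds insulin receptor substrates, read 9.62 and 9.72 beside 9.80 and 9.71, the groups overlapping (−0.09, limma adjusted p = 0.544). In this comparison the groups did not overlap for 6 of the 8 members, where the share over all genes was 70.0%. Of these, 2 were higher (35.8% over all genes) and 4 lower (34.2%).

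The SRC-3 comparison asks the same question of the coactivator. None of the 8 members passed the test (limma, 0 of 8; 1 had an unadjusted p under 0.05, beside 12.5% of all genes), in a comparison in which 0.225% of all genes were called. Socs2 gave the smallest p. It read 12.94 and 13.28 in SRC-3-deficient cells beside 12.72 and 12.65 in the wild type, so both deficient arrays lay above both wild-type arrays. The log2 fold change was 0.43 (SE 0.11, 95% confidence interval 0.18 to 0.67), with an unadjusted p of 0.00429 and a limma adjusted p of 0.162. The CD8 T cell marker Cd8b1 gave a value of like size in the same comparison (0.42, SE 0.09, limma adjusted p = 0.133), with Cd8a below the filter on all 8 arrays.

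The dimmer Socs2 probe set read 10.36 and 10.71 beside 10.14 and 10.11, giving 0.41 on the log2 scale (limma adjusted p = 0.183). On both probe sets deficient replicate 2 was the highest array. Deficient replicate 1, the array with the low Xist signal, was the lower of the pair and still lay above both wild-type arrays. Without deficient replicate 2 the log2 fold change of Socs2 was 0.26 (limma adjusted p = 0.277), and without deficient replicate 1, which leaves 3 arrays with a high Xist signal, it was 0.60 (limma adjusted p = 0.0658).

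**Figure D2:**
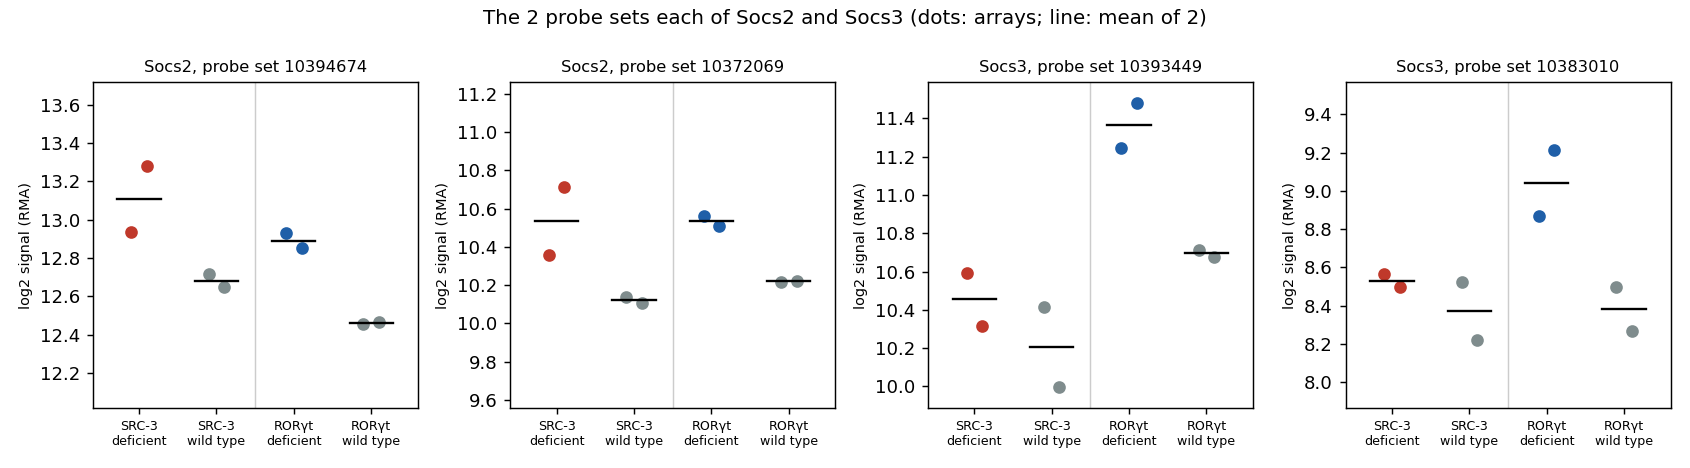
Log2 signal (RMA, vertical axis) of the 2 probe sets each of Socs2 and Socs3 by group; dots are arrays and lines are means of 2. Both Socs2 probe sets are higher in both deficient groups than in the wild type of the same experiment, and both Socs3 probe sets are highest in the RORγt-deficient samples.

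Socs3 read 10.59 and 10.32 in SRC-3-deficient cells beside 10.42 and 9.997 in the wild type, and the groups overlapped. Its log2 fold change was 0.25 (95% confidence interval −0.11 to 0.60, limma adjusted p = 0.561), and it was 0.04 without wild-type replicate 2, the lowest array. Cish read 12.64 and 12.60 beside 12.57 and 12.34, without overlap (0.17, 95% confidence interval −0.04 to 0.37, limma adjusted p = 0.487). Its value was 0.049 without wild-type replicate 2 and 0.28 without wild-type replicate 1. It was the only member beside Socs2 whose groups did not overlap in this comparison, where the share over all genes was 37.2%.

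Socs1 read 10.55 in both deficient samples beside 10.57 and 10.29 in the wild type (log2 fold change 0.12, 95% confidence interval −0.11 to 0.34, limma adjusted p = 0.704). Socs4 read 10.48 and 10.41 beside 10.46 and 10.31 (0.06, limma adjusted p = 0.786), and Socs6 read 9.01 and 9.05 beside 9.02 and 8.98 (0.03, limma adjusted p = 0.88). Socs5 read 8.92 and 8.62 beside 8.82 and 8.85 (−0.06, limma adjusted p = 0.862), and Socs7 read 9.42 and 9.21 beside 9.36 and 9.17 (0.05, limma adjusted p = 0.907). Over the 4 arrays of this experiment, wild-type replicate 2 was the lowest for 7 of the 8 members, Socs5 being the exception, while it was the lowest for 27.4% of all genes. Without it the log2 fold changes of Socs1, Socs4 and Socs7 turned to −0.02, −0.01 and −0.05. The part of this array in the small positive values of the SRC-3 comparison was not tested beyond this.

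**Figure D3:**
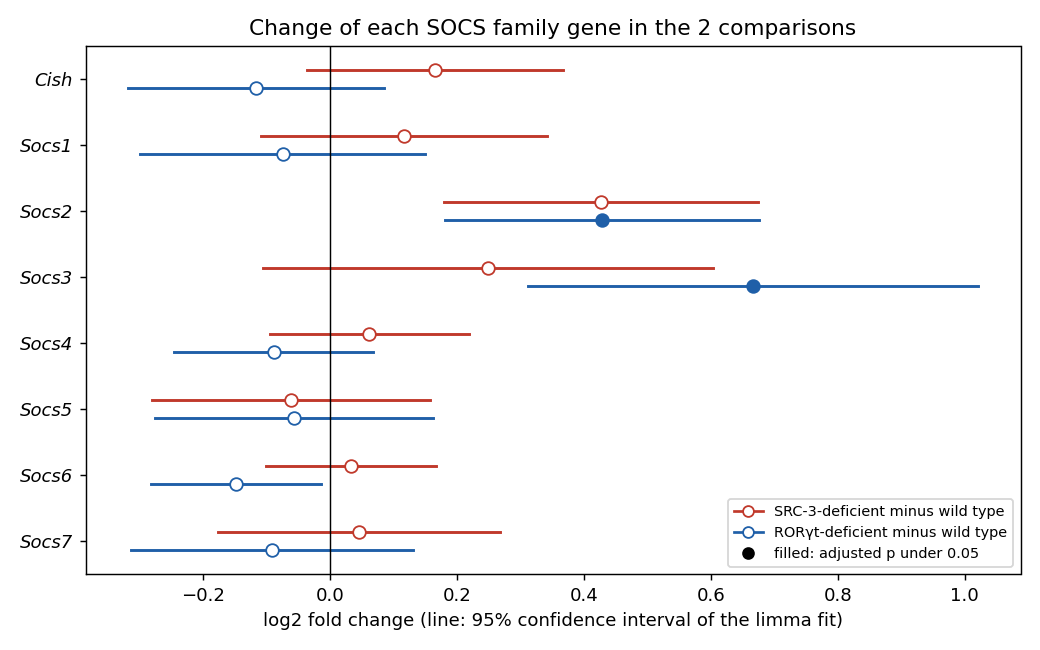
Log2 fold change (horizontal axis) of each SOCS family gene, deficient minus wild type, in the SRC-3 (red) and RORγt (blue) comparison; lines are 95% confidence intervals of the limma fit and filled dots have an adjusted p under 0.05. The filled dots are Socs3 (0.67) and Socs2 (0.43) in the RORγt comparison; Socs2 has nearly the same position in the SRC-3 comparison with an open dot.

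The change without SRC-3 was then set against the change without RORγt by the test of their difference; the 2 comparisons share no arrays. None of the 8 members passed (limma, 0 of 8, and 0 with an unadjusted p under 0.05, beside 17.3% of all genes), where 1.67% of all genes did. For Socs2 the difference of the log2 fold changes was −0.0016 (95% confidence interval −0.35 to 0.35, limma adjusted p = 0.997), so the values were nearly equal, although 1 passed the threshold and the other did not. The fit pooled the spread of all 4 groups, so both Socs2 values carry the same SE (0.11). The deficient pair itself had an SD of 0.24 in the SRC-3 and 0.06 in the RORγt experiment. For Socs3 the difference was −0.42 (95% confidence interval −0.92 to 0.08, limma adjusted p = 0.37), between −0.63 without SRC-3 wild-type replicate 2 and −0.21 without SRC-3 wild-type replicate 1, and on its dimmer probe set −0.50 (limma adjusted p = 0.276 with each probe set tested on its own). Cish, at 0.28 (95% confidence interval −0.0025 to 0.57, limma adjusted p = 0.293), and Socs6, at 0.18 (limma adjusted p = 0.306), had values above 0 in the SRC-3 and below 0 in the RORγt comparison.

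On the standing probe sets, both groups of the RORγt experiment lay above both of the SRC-3 experiment for 6 members. The exceptions were Socs4, with the reverse order, and Socs2. On the dimmer Socs3 probe set, however, SRC-3-deficient cells (8.53) lay above RORγt wild type (8.38). On Socs6 probe set 10460118, RORγt-deficient cells were the lowest group (8.41). The orders that follow are again those of the standing probe sets. Socs3 was highest in RORγt-deficient cells (11.36 ± 0.17, SD, n = 2), followed by RORγt wild type (10.70 ± 0.03), SRC-3-deficient (10.46 ± 0.19) and SRC-3 wild type (10.21 ± 0.30). The last 2 neighbours did not differ beyond their spread. Socs2 was highest in SRC-3-deficient cells (13.11 ± 0.24), then in RORγt-deficient (12.89 ± 0.06), SRC-3 wild-type (12.68 ± 0.05) and RORγt wild-type cells (12.46 ± 0.01), and the first 2 differed by less than the spread of the SRC-3-deficient pair. It was the only member whose standing probe set had both deficient groups above both wild-type groups. Levels between experiments carry no test here, because experiment and group cannot be told apart.

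By the rule of the closest pattern over the 8 arrays, with the mean of each experiment taken off, the genes nearest to Socs3 were Clcf1, Mgst2 and Serpinb9. Clcf1 encodes a cytokine that signals through gp130, and its root mean square difference from Socs3 was 0.0333 log2 units. Its log2 fold change was 0.62 without RORγt and 0.27 without SRC-3, a likeness to Socs3 that follows from the choice. Mgst2, a microsomal glutathione transferase gene, differed by 0.0528 and Serpinb9, the gene of a granzyme B inhibitor, by 0.0541. The genes nearest to Socs2 were the tyrosine phosphatase gene Ptpn9 (0.0443), the fibulin gene Fbln1 (0.056) and the retinol dehydrogenase gene Rdh10 (0.0658).

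The pathway around the SOCS genes was described with 9 lists. Of the 23 cytokine receptor chains that signal through JAKs, 18 were tested, and without RORγt 7 rose and 3 fell. Over all genes 19.4% were called in either direction. The median log2 fold change of the list was 0.08, beside 0.00 over all genes. The 2 subunits of the IL-6 receptor both rose. Il6st, the gene of gp130, to which SOCS3 binds, went from 8.52 and 8.58 to 9.62 and 9.64 (log2 fold change 1.08, SE 0.06, limma adjusted p = 0.000216). Il6ra went from 10.96 and 11.09 to 11.56 and 11.74 (0.62, limma adjusted p = 0.00428).

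Other receptor chains moved in both directions without RORγt. The IL-23 receptor gene Il23r fell from 11.47 and 11.35 to 8.28 and 8.08, while Ifngr1, a chain of the interferon γ receptor, rose by 0.79 and Il7r fell by 0.44 on the log2 scale (limma adjusted p = 0.00204 and 0.0036). Without SRC-3, none of the 18 passed (limma; the smallest adjusted p was 0.108, for Il23r). Il6st gave 0.22 there (limma adjusted p = 0.214), and the difference between the comparisons was −0.86 (limma adjusted p = 0.0079). Leaving out any 1 RORγt array left 6 of the 10 receptor calls.

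Among the listed cytokine genes that signal through JAKs, those called without RORγt all fell. Clcf1 is outside the list and was named above only for its likeness to Socs3, so its value there (0.62) follows from that choice. Of 17 listed, 10 were tested, and without RORγt 4 fell and none rose, beside 19.4% of all genes called in either direction. The 4 were Il21, an activator of STAT3 made by Th17 cells (−0.59), Lif, a ligand of gp130 complexes (−1.17), Csf2 (−1.07) and Il23a (−0.64), with limma adjusted p between 0.002 and 0.0242. Without wild-type replicate 2 of this experiment 2 of the 4 were called. Il23a lay near the filter of 7.85, at 7.81 and 7.90 on the deficient arrays. It reached the filter on 2 arrays only with the RORγt wild type (8.54 and 8.44), the group in which it was high. Csf2 read 7.30 and 7.74 on the RORγt-deficient arrays, below the filter. Without SRC-3 none of the 10 passed. The value for Il9 was 1.19 (limma adjusted p = 0.133), from 7.45 and 7.77 on the wild-type arrays to 8.33 and 9.27. Il9 passed the filter through these deficient arrays, since beyond them only RORγt wild-type replicate 2 reached it (7.91).

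Of the JAK and STAT genes, 9 of 11 were tested, and 2 were called without RORγt, a share near the 19.4% over all genes. Stat4 (0.45, limma adjusted p = 0.015) and Stat2 (0.72, limma adjusted p = 0.0418) rose. After a new quantile normalization 1 gene of the list was called. Stat3, the activator of Socs3, gave 0.08 without RORγt (limma adjusted p = 0.573) and 0.22 without SRC-3 (limma adjusted p = 0.349). Leaving out any 1 array of the RORγt experiment took the count of called JAK and STAT genes to between 0 and 1.

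Target genes of the STATs were taken next. In the RORγt comparison 19.4% of all genes were called, in either direction. Of 16 tested STAT3 target genes, 2 rose and 5 fell without RORγt, with a median of −0.13. Il17f (−3.36), Il17a (−4.11) and Il23r (−3.23) fell, and these are also RORγt targets, while Il6ra rose. Of 14 tested STAT5 and IL-2 target genes, Gzmb rose (0.91, limma adjusted p = 0.0478). Lta (−0.66), Bcl2l1 (−0.62) and Bcl6 (−0.37) fell, and the median was −0.12. Bcl6 is in both lists and is also among the 5 STAT3 targets that fell. Neither list separates genes that a STAT raises from genes that it lowers, so the counts and medians give no direction of STAT activity. Without SRC-3, where 0.225% of all genes were called, Maf (−0.68) and Il17f (−1.03) fell among the STAT3 targets, and no STAT5 target passed. The pair was not stable: none was called without SRC-3-deficient replicate 1, without SRC-3 wild-type replicate 2 or without any 1 of the RORγt arrays, and 1 without SRC-3-deficient replicate 2. In the RORγt comparison, 4 STAT3 targets were called without wild-type replicate 2, and 2 STAT5 targets without any 1 of the 4 arrays.

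Of 13 further negative regulators of JAK-STAT signalling, 3 rose without RORγt, a share near the 19.4% called over all genes: Pias1 (0.25) and Pias3 (0.36), which encode inhibitors of activated STATs, and Ptprc (0.27), the gene of the phosphatase CD45 (limma adjusted p between 0.0187 and 0.0367). The 13 genes had a median of 0.04. Usp18, an interferon-induced brake on the interferon receptor, spread from 9.30 to 12.00 over the SRC-3 arrays and gave 1.20 without RORγt (SE 0.62, limma adjusted p = 0.218). Leaving out any 1 RORγt array left none of the 3 called. Without SRC-3 none of the 13 passed.

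The machinery that SOCS proteins use did not pass in either comparison. Of the 8 tested ubiquitin ligase partners of the SOCS box none passed, and their log2 fold changes lay between −0.18 and 0.03 without RORγt and between −0.05 and 0.14 without SRC-3. The smallest adjusted p without RORγt was that of Eloc, the gene of elongin C (−0.14, limma adjusted p = 0.147). None of the 5 tested growth factor receptors and signalling proteins that SOCS proteins bind passed either. Without RORγt, 2 of the 5 lay above 0 (median −0.01), and Igf1r gave 0.33 (limma adjusted p = 0.143). Without SRC-3 all 5 lay above 0, with a median of 0.24 beside 0.02 over all genes. Irs2 had the smallest p there (0.33, limma adjusted p = 0.296). On average these genes were lowest on SRC-3 wild-type replicate 2.

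Of 14 tested genes of other SOCS box proteins, 2 were called without RORγt, beside 19.4% of all genes, so the count is no result about the list. Both rose: Spsb1, which encodes an adaptor with a SPRY domain, and Asb13, which encodes one with ankyrin repeats. Spsb1 went from 9.31 and 9.21 to 9.68 and 9.90 (log2 fold change 0.53, limma adjusted p = 0.016), and Asb13 gave 0.57 (limma adjusted p = 0.0246). Without either RORγt-deficient array 1 of the pair was called, and without either wild-type array none. In the SRC-3 comparison Spsb1 read 9.69 and 9.45 beside 9.18 and 9.03 (0.46, limma adjusted p = 0.15), and Asb2 gave −0.87 (limma adjusted p = 0.0567), neither past the threshold.

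**Figure D4:**
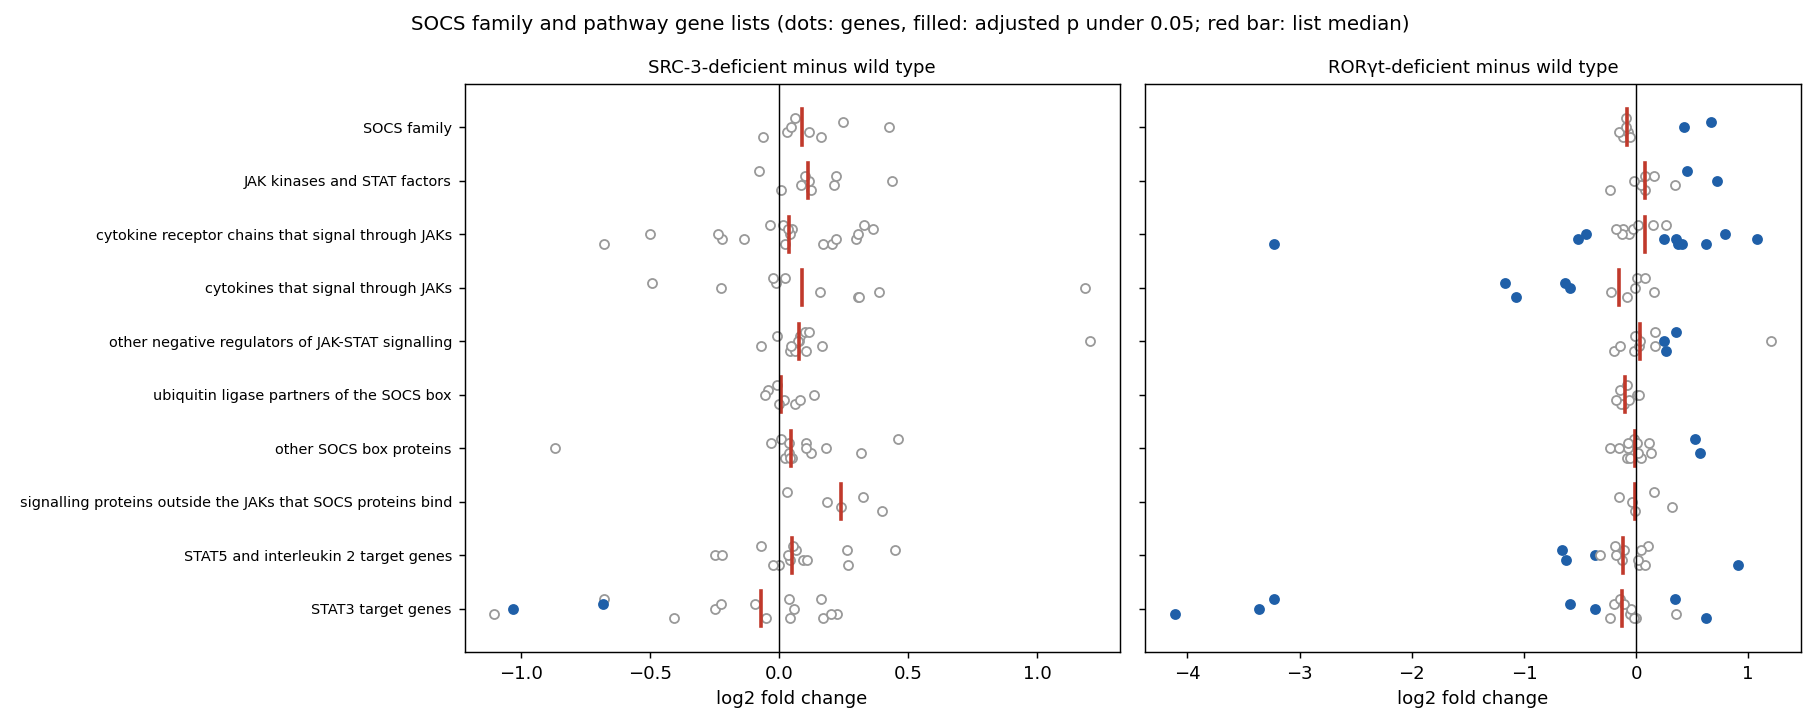
Log2 fold change (horizontal axis, with a different range in each panel) of every tested gene of the SOCS family and the 9 pathway lists, without SRC-3 (left) and without RORγt (right); filled dots have an adjusted p under 0.05 and red bars are list medians. The SOCS family medians are 0.09 and −0.08.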

How the data were processed

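The series holds 8 Affymetrix Mouse Gene 1.0 ST arrays of Th17 cells. The deposited values are log2 signals per probe set, which the submitters' processing notes credit to RMA and the Affymetrix Expression Console; RMA corrects background and normalizes arrays together, which can compress fold changes. Of 35556 probe sets, 21789 had 1 gene symbol in the platform table, 1621 several and 12146 none; the last 2 kinds were left out. A gene was read from its brightest probe set and tested if it reached 7.85, the median of all values, on 2 arrays, which left 11128 genes. Group means of 8 arrays were fitted in limma 3.58.1 (R 4.3.3; lmFit, eBayes; 4 residual and 3.532 prior degrees of freedom), two-sided, with Benjamini-Hochberg adjustment over all genes and a threshold of 0.05. Each gene had 1 estimate of spread over all 4 groups. The median SD of a pair was larger in the SRC-3 groups (0.0678 deficient, 0.0735 wild type) than in the RORγt groups (0.0438 and 0.0457). The fit was tested on simulated data. Promoter windows were searched in Python 3.11.15. Named genes were up to 4 per list past the threshold by smallest p, otherwise 2, and the 3 genes most like Socs2 and Socs3. Usp18, outside this rule, was named after its values were seen. The members and lists were chosen with earlier results of these data known. 1 further gene list is not reported here.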

Additional observations from a re-analysis of the deposited data

How the results depend on the processing

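Over all alternatives the members' values kept direction and side of the threshold in 389 of the recomputed values, while 14 reversed, 8 fell short of the threshold and 1 passed it. The 8 were Socs2 and Socs3 in the RORγt comparison without each of its 4 arrays, so the count of members called there ranged from 0 to 2 on leaving out 1 array; it was 0 at an adjusted p of 0.01. The reversals were of values near 0. The difference for Socs2 was 0.049 with the mean of its probe sets and −0.17 to 0.17 on leaving out 1 array, that for Socs5 −0.15 to 0.14, and the SRC-3 values ranged from −0.21 to 0.087 for Socs5, −0.057 to 0.15 for Socs7, −0.024 to 0.26 for Socs1 and −0.012 to 0.13 for Socs4. The count of all genes called without SRC-3 (25, 21 higher and 4 lower) was 14 with the stricter filter, 47 with an intensity trend and robust prior, 10 with array weights, 0 from the 4 arrays alone (limma, 827 with an unadjusted p under 0.05), 0 and 129 at adjusted p of 0.01 and 0.1, and 0 to 61 on leaving out 1 array. The 0 was without SRC-3 wild-type replicate 2 (1457 with an unadjusted p under 0.05). A new quantile normalization gave 16 higher and 6 lower. The RORγt count (2157) was 3679 with array weights, 3389 from the 4 arrays alone, 749 at 0.01 and 486 to 2539 on leaving out 1 array. The count for the difference (186, 103 higher and 83 lower) was 119 with the stricter filter, 24 and 470 at 0.01 and 0.1, and 15 to 264 on leaving out 1 array; median scaling gave 74 higher and 97 lower, and quantile normalization 60 and 72. The cause of these moves was not tested. The number of arrays limits all of them.

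With the replicate number as a block, 301 genes were called without SRC-3, 3411 without RORγt and 945 for the difference, and 0, 2 and 0 members. The labels do not say that a number pairs samples; same-numbered samples' deviations correlated at 0.536 in the SRC-3 and 0.00174 in the RORγt experiment, each over only 2 pairs.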

Other observations

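The wild-type samples of the 2 experiments differed in the level of several members, which no comparison of the study addresses and which carries no test, since experiment and group cannot be told apart. Socs1, the interferon γ pathway inhibitor, was at a mean log2 signal of 11.33 in the RORγt wild type and 10.43 in the SRC-3 wild type, a difference of 0.90. Socs4 went the other way, 9.53 beside 10.38. Cish was higher by 0.66 in the RORγt wild type, and Socs3 and Socs7 by 0.49 each, all on the standing probe sets. The dimmer Socs3 probe set did not show this, with means of 8.38 in the RORγt and 8.37 in the SRC-3 wild type. Over all genes tested the median size of this difference was 0.272. For Socs1 and Socs4 it was larger than the change of any member within either experiment.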
